A study of Rattus norvegicus with 6 samples.

Results

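A set of 10 inflammatory genes was followed in rat gastrocnemius muscle: the cytokines Il6, Il1b and Tnf, the chemokines Ccl2, Cxcl1 and Cxcl10, the adhesion molecule Icam1, and the signalling genes Stat3, Socs3 and Nfkbia. They were taken by gene symbol, 1 transcript cluster (the array's unit for a gene) per symbol, and make up 10 of the 14506 genes measured. The choice was made with values of these arrays in view, because casein array 2 stood far above the others in this group of genes. That height is therefore given as a description and without a test.

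The series holds 6 arrays. Of these, 2 came from rats on the leucine diet, 2 from rats on the dairy diet and 2 from rats on the casein diet, the control. All were male Sprague-Dawley rats with diet-induced obesity, aged 20 weeks at sampling after 8 weeks of free access to a diet rich in fat and sucrose. Protein gave 10% of the energy in each diet (4.6 kcal/g): casein at 7.1% with free leucine at 2.9%, skim milk powder as complete dairy protein, or casein alone. The submitters' design speaks of 4 rats on each diet, and no label ties an array to 1 rat or to a pool, so the spread between arrays may be technical and each p-value measures that spread alone.

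Values are log2 signals, so that a difference of 1 is a 2-fold difference, and no background reading was used here. Fast-fibre transcripts, which mark the main fibre type of gastrocnemius, had medians of 12.39 and 12.39 on the leucine arrays, 12.85 and 12.68 on the dairy arrays, and 12.70 and 12.48 on the casein arrays. The labels name gastrocnemius as the tissue, whereas the protocol texts speak of liver. Casein array 2 stood apart from the rest: its mean correlation with the other arrays across genes was 0.974, against 0.985 to 0.988 for the other 5. On it, 177 genes lay over 2-fold above every other array and 64 over 2-fold below, against 0 to 17 above and 0 to 4 below on the other arrays. Its slow-fibre transcripts were low, with all 11 measured markers over 2-fold below every other array. Results that rest on this array are given with and without it.

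The genes form 2 linked signalling routes. In one, TNF, IL-1β and microbial products free the transcription factor NF-κB from its inhibitor IκBα, the product of Nfkbia, and NF-κB then drives chemokine, cytokine and adhesion genes as well as Nfkbia itself. In the other, IL-6 binds its receptor and the shared chain encoded by Il6st, JAK kinases activate STAT3, and STAT3 induces Socs3, which shuts the receptor down. In skeletal muscle IL-6 is also released by contracting fibres, and chemokines draw leukocytes into injured tissue.

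The start regions of 4 of these genes are shown because each carries the κB motif, searched as GGG and TTCC separated by any 3 bases. Sequences are from RefSeq on build GRCr8, run 5′ to 3′ on the strand of the gene, and hold 250 bases before the annotated start and 50 after it. Of the 10 genes 9 had such a region, and no region of Ccl2 was used here. Capitals mark the κB motif on either strand, and overlapping matches run together. The regions lie at chr4:5894526-5894825 (minus strand) for Il6, chr14:15988816-15989115 (plus strand) for Cxcl10, chr14:17479272-17479571 (minus strand) for Cxcl1 and chr6:78597023-78597322 (minus strand) for Nfkbia.
Il6: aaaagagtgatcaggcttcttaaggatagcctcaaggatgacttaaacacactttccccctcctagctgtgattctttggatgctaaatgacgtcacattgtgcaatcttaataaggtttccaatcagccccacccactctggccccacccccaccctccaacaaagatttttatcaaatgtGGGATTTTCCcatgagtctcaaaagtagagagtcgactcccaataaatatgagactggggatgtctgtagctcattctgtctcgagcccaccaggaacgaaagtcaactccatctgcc
Cxcl10: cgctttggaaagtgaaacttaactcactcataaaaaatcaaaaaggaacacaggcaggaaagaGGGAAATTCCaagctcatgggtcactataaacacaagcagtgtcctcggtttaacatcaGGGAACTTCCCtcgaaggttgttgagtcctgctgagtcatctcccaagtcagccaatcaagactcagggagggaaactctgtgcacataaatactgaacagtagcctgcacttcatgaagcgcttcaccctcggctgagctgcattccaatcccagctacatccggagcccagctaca
Cxcl1: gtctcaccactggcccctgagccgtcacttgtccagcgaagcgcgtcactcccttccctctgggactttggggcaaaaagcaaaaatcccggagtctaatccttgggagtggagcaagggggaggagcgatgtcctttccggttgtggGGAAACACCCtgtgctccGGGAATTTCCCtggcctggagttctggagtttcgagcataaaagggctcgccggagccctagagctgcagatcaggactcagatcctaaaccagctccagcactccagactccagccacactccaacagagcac
Nfkbia: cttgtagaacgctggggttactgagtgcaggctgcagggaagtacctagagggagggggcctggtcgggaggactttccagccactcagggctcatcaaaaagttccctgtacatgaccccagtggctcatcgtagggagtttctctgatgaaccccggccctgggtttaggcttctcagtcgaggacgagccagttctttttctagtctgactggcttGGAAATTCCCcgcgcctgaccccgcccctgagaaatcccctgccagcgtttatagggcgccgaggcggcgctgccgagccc

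In Il6 the match GGGATTTTCC began 68 bases before the start. In Cxcl10 the match GGGAAATTCC began 187 bases before the start, and 2 overlapping matches, GGGAACTTCC and GGAACTTCCC, began 128 and 127 bases before it. In Cxcl1 the match GGAAACACCC began 102 bases before the start and the overlapping pair GGGAATTTCC and GGAATTTCCC at 84 and 83 bases. Nfkbia had a single match, GGAAATTCCC, 31 bases before its start. The motif was found in 4 of the 9 regions and in 5.37% of 33469 rat regions of the same length. Other motifs were searched on both strands as well. The STAT motif TTCNNNGAA was in 1 of 9 (Icam1, TTCCGGGAA) and in 8.87% of all regions. The AP-1 motif TGANTCA was in 1 of 9 (Cxcl10) and in 7.33%, and the interferon-response motif, TTTC repeated after any 2 bases, in 1 of 9 (Cxcl10) and in 3.92%. The cAMP-response motif TGACGTCA was in 1 of 9 (Il6) and in 1.83%, and TATAAA in 5 of 9 and in 14.2%. These are matches of letters and do not show binding.

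Il6, the cytokine at the head of the STAT3 route, stood at 2.40 and 2.40 on the leucine arrays, 2.12 and 2.16 on the dairy arrays, and 2.0 and 6.97 on the casein arrays. It was dim on 5 arrays, between the 5.6th and the 16.6th percentile of all genes, and at the 86.4th on casein array 2. There it lay 4.56 above the next highest array, a 23.6-fold excess and the largest of all 14506 genes. The rest of the arrays spanned 0.40.

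Il1b encodes IL-1β, which activates NF-κB in the cells it reaches. Its values were 3.44 and 3.60 with leucine, 3.28 and 3.15 with dairy, and 3.60 and 4.88 with casein. Casein array 2 was 2.43-fold above the next array, and the rest lay within 0.46. Tnf, which encodes the other classic activator of NF-κB, stood at 3.44 and 2.89 with leucine, 3.13 and 3.44 with dairy, and 3.44 and 4.10 with casein. Tnf was thus highest on the same array, but by only 1.58-fold, and 1 deposited value, 3.44, was repeated on leucine array 1, dairy array 2 and casein array 1.

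Ccl2, the chemokine that recruits monocytes through the receptor Ccr2, had signals of 3.47 and 3.62 with leucine, 3.77 and 3.53 with dairy, and 3.76 and 7.97 with casein. Its excess on casein array 2 was 18.3-fold over the next array, ranked 2 among all genes, while the other 5 arrays lay within 0.30. Cxcl1, which attracts neutrophils through Cxcr2, stood at 4.67 and 4.83 with leucine, 4.39 and 4.57 with dairy, and 4.85 and 7.40 with casein. The excess was 5.86-fold, and the remaining arrays spanned 0.45.

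Cxcl10, an interferon-inducible chemokine that binds Cxcr3 on T cells and natural killer cells, was at 3.08 and 3.33 with leucine, 5.40 and 3.18 with dairy, and 3.78 and 7.72 with casein. It was the only member with a second high array: dairy array 1 lay over 2-fold above the other 4 once casein array 2 was set aside, as did 39 genes in all (0.269%). Cxcl9, the neighbouring gene and another ligand of Cxcr3, showed the same order at the top, with 5.56 on dairy array 1 and 7.70 on casein array 2, against 3.99 to 4.28 on the rest. Adipocyte markers also had their highest summed signal on dairy array 1, 541, with 502 on casein array 2 and 275 to 342 on the others. So did fibroblast and matrix markers, at 3609, and fast-fibre markers, at 77355. The part of these cell types in Cxcl10 was not tested.

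Icam1, the endothelial adhesion molecule on which leukocytes arrest, stood at 3.78 and 4.74 with leucine, 4.64 and 4.61 with dairy, and 4.61 and 6.33 with casein. Casein array 2 was 3.00-fold above the next array. Leucine array 1 was the low array of this gene, 0.96 below leucine array 2.

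Socs3, the feedback inhibitor of the STAT3 route, had values of 3.64 and 3.53 with leucine, 4.57 and 4.59 with dairy, and 4.20 and 7.71 with casein. The excess on casein array 2 was 8.67-fold, rank 9 among all genes. Among the other 5 arrays both leucine arrays were lowest, casein array 1 came next and both dairy arrays were above it. Nfkbia, which encodes IκBα, stood at 7.88 and 7.22 with leucine, 8.06 and 7.10 with dairy, and 7.09 and 9.09 with casein. It was bright on every array, at the 86.7th percentile or higher, and its 2.05-fold excess is just past 2-fold. Array 1 was the higher of the pair in both the leucine and the dairy diet, by 0.66 and 0.96.

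Stat3, the transcription factor itself, varied least over the 6 arrays: 7.33 and 7.69 with leucine, 7.70 and 7.70 with dairy, and 7.22 and 8.02 with casein. Its log2 excess on casein array 2, 0.32 or 1.25-fold, was smaller than the 0.48 spanned by the other arrays. The target gene Socs3 and the ligand gene Il6 thus differed far more between the casein arrays, by 3.51 and 4.97, than the factor gene, by 0.80.

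**Figure D1:**
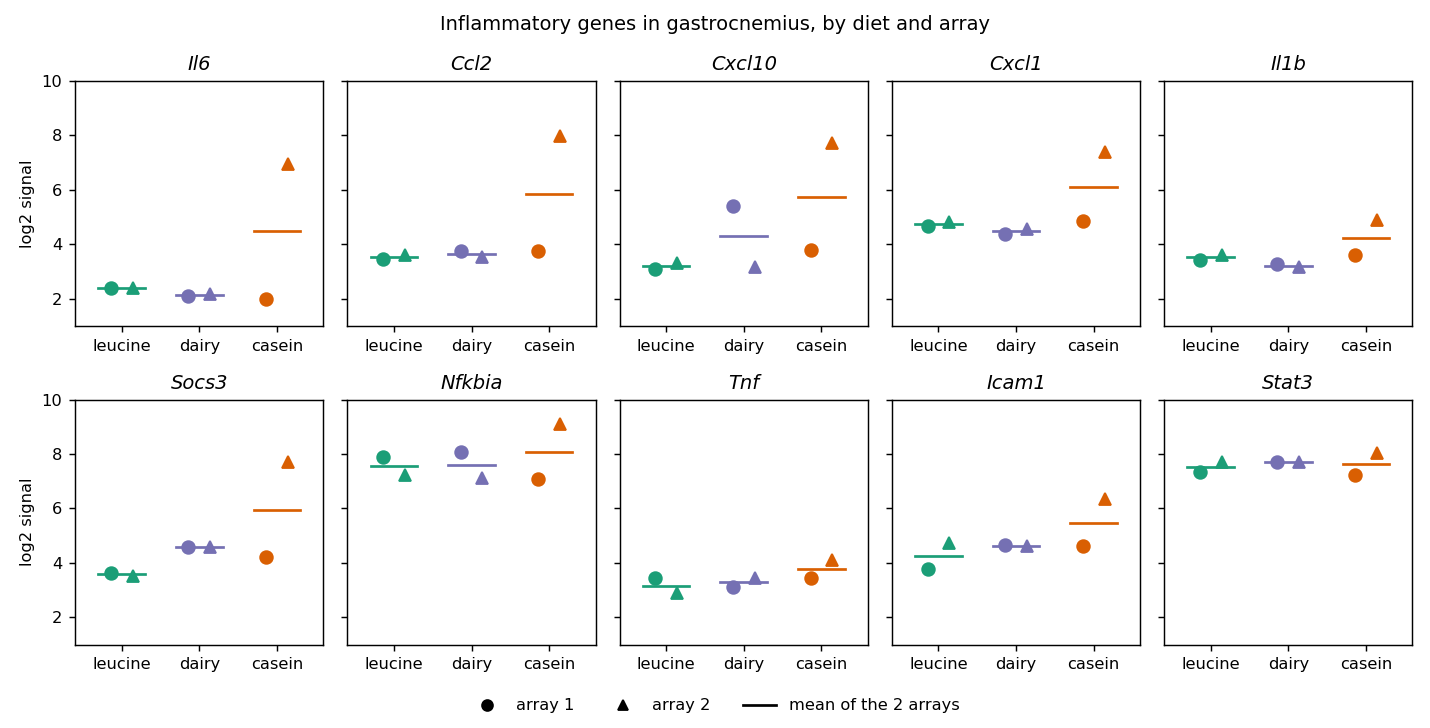
Log2 signal (vertical axes) of the 10 genes on the 2 leucine, 2 dairy and 2 casein arrays, with circles for array 1, triangles for array 2 and a line for the mean of each diet. Casein array 2 is the highest array in every panel, from 8.02 against at most 7.70 for Stat3 to 6.97 against at most 2.40 for Il6.

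Casein array 2 was the highest of the 6 arrays in 10 of 10 members, against 21.5% of all genes. It was over 2-fold above every other array in 8 of 10, against 1.22% of all genes, and over 4-fold above in 5 of 10 (Il6, Ccl2, Socs3, Cxcl1 and Cxcl10), against 0.248%. The members were chosen on this height, so nothing is read from those shares. Nfkbia, at 2.05-fold, and Il1b, at 2.43-fold, lay just inside the 2-fold line. Tnf, at 1.58-fold, and Stat3, at 1.25-fold, lay outside it. No member stood over 2-fold above every other array on any of the other 5.

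**Figure D2:**
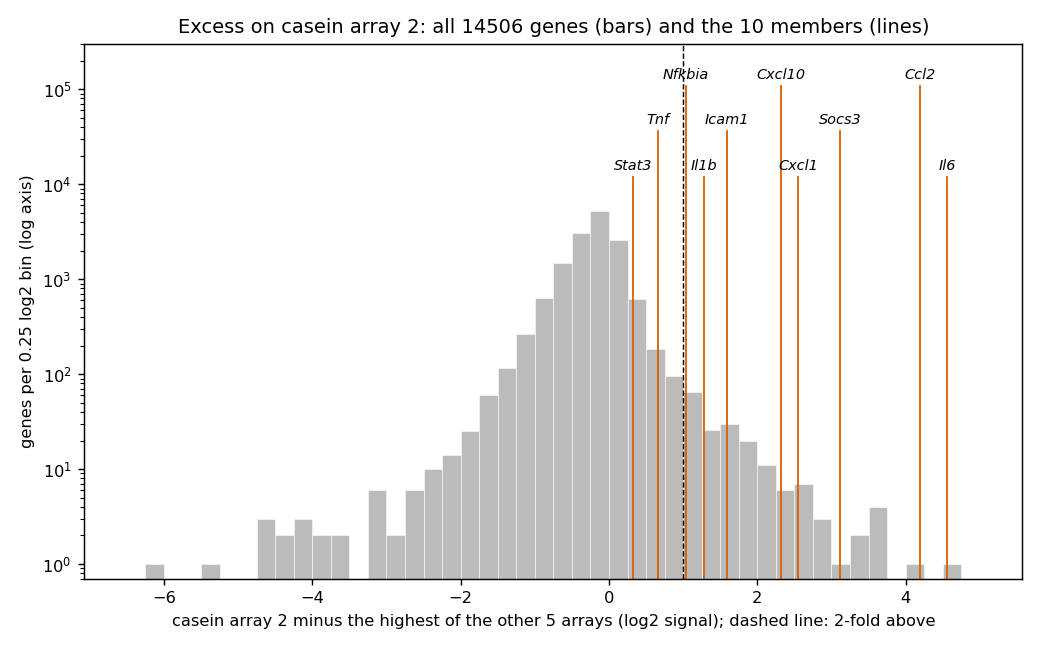
Casein array 2 minus the highest of the other 5 arrays (horizontal axis, log2 signal) for all 14506 genes as bars on a log count axis and for the 10 members as lines. Il6 at 4.56 and Ccl2 at 4.20 stand at the far right, while Stat3 at 0.32 and Tnf at 0.66 lie left of the dashed 2-fold line.

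Position in the genome was compared through the order of genes in RefSeq. The neighbour of Ccl2, Ccl7, encodes another chemokine for monocytes and stood at 7.21 on casein array 2, against 2.99 to 3.65 on the other 5. Cxcl9 beside Cxcl10 is given above. The other measured neighbours lay closer to the rest of the arrays. Cxcl11, on the other side of Cxcl10, was at 3.26 against at most 2.79, Cxcl2 beside Cxcl1 at 3.44 against at most 2.75, and Il1a beside Il1b at 2.42 against at most 2.15. Lta and Ltb, on the 2 sides of Tnf, were at 2.55 and 4.81 on casein array 2, against at most 2.55 and 4.52. Mrpl4 beside Icam1, Psma6 beside Nfkbia, Stat5a beside Stat3 and Dnajb6 beside Il6 were each below their highest other array.

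The genes whose signals followed Il6 most closely over the 6 arrays were sought among the 248 other genes that spanned at least 2 log2 units. Pearson's r is given as a description, and it rests on casein array 2. Highest was Myc, the growth-related transcription factor, with r = 0.993, at 6.33 on casein array 2 against 3.60 to 3.96. Lcn2, the iron-chelating lipocalin of the acute response, had r = 0.987 and stood at 6.59 against 3.40 to 3.67. Ptx3, the long pentraxin induced by IL-1 and TNF, had r = 0.983, at 5.86 against 2.49 to 2.95. Slc39a14, a zinc and iron importer induced by IL-6 in mouse liver, had r = 0.982, at 7.36 against 5.18 to 5.62. Ccl7 (0.985), Adamts9 (0.987), Tgif1 (0.988), Bcar1 (0.989), Agt (0.984) and G6pc1 (0.984) complete the 10. Among the members r with Il6 was highest for Ccl2 at 0.990 and lowest for Stat3 at 0.705. Over the other 5 arrays alone r with Il6 ran from −0.79 for Socs3 to 0.229 for Nfkbia, and it was −0.70 for Ccl2, so the close likeness was not seen without casein array 2.

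Beyond the members, 122 genes in 8 lists of related pathways were measured. Casein array 2 was the highest array in 84 of them, against 21.5% of all genes. It was over 2-fold above every other array in 24, against 1.22%. The lists were chosen with earlier results of these data known. Nothing is therefore read from these counts or from the counts per list below. By limma with Benjamini-Hochberg adjustment 0 of the 122 passed 0.05 in leucine against casein, dairy against casein or leucine against dairy.

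Among ligands, receptors and kinases upstream of STAT3, casein array 2 was highest in 7 of 14, and its median difference from the mean of the other 5 arrays was 0.11. Osmr, the oncostatin M receptor chain, was at 7.30 on casein array 2 against 4.47 to 5.71, Cntfr at 7.66 against 5.14 to 6.80, and Il6r, the IL-6 receptor, at 6.96 against 5.48 to 6.04. Of the other 6 ligands listed, Lif was at 2.94 against at most 2.62, Il11 at 3.28 against at most 3.17 and Clcf1 at 3.17 against at most 3.14. Osm was at 3.88 against at most 3.88, while Cntf, at 3.81 against 4.06 to 4.41, and Ctf1, at 5.36 against 5.51 to 5.80, were lowest on casein array 2. Targets and feedback genes of STAT3 had casein array 2 highest in 16 of 18, with a median difference of 1.16. Junb stood at 9.19 against 4.69 to 5.59, and Timp1, an inhibitor of matrix proteases, at 6.48 against 3.34 to 3.99. Cebpb and Cebpd, transcription factors of the acute phase, were at 7.47 and 7.83 on casein array 2, against at most 6.38 and 6.21. Socs1, a relative of Socs3, was at 4.36 on casein array 2, against 4.33 on casein array 1.

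NF-κB subunits, kinases and inhibitors had casein array 2 highest in 10 of 21 and a median difference of 0.11. Highest above the other arrays in that list were Nfkbiz, an inducible IκB family protein, at 6.23 against 3.77 to 4.42, Birc3, an NF-κB-induced ubiquitin ligase, at 5.51 against 3.37 to 3.78, and the Toll and IL-1 receptor adaptor Myd88 at 7.16 against 4.49 to 5.37. The kinase gene Chuk was at 6.24 against 6.03 to 6.67 and the subunit gene Nfkb1 at 6.53 against 6.10 to 6.39. Other chemokines had casein array 2 highest in 14 of 21, with a median difference of 0.27. Cxcl16 was at 6.60 against 3.97 to 4.52 and Cx3cl1 at 5.94 against 3.68 to 4.02, whereas Ccl3 was at 2.55 against at most 2.55 and Cxcl12, a constitutive chemokine, at 6.06 against 6.49 to 6.88.

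Receptors of the member ligands had casein array 2 highest in 10 of 11, with a median difference of 0.55. Il1r1, the signalling receptor of IL-1, was at 5.92 against 4.05 to 4.89, and Ccr2 at 5.22 against 3.34 to 4.21. Cxcr2 was dim throughout, at 2.64 against 2.16 to 2.53. In the list of other adhesion molecules casein array 2 was highest in 3 of 6, with a median difference of 0.60. Selp, the P-selectin of activated endothelium, was at 7.33 against 3.02 to 4.05 and Vcam1 at 5.95 against 2.96 to 4.17, while Sele was at 3.20 against at most 3.20. Immediate early genes, which respond within minutes to stress and handling, had casein array 2 highest in 11 of 16, with a median difference of 0.65. Fos was at 7.48 against 4.11 to 4.79 and Zfp36, which destabilises cytokine mRNAs, at 9.90 against 5.47 to 7.72, but Jun was lowest on that array, at 7.19 against 7.84 to 8.54.

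Markers of the cell types a piece of muscle can hold were read beside the members, and their part in the members' signals was not tested. In tissue RNA, more cells of a type and more RNA per cell cannot be told apart. Summed on the linear scale, the 10 members reached 1896 on casein array 2, against 411 to 623 on the other 5. Macrophage markers, all 14 measured, summed to 803 on casein array 2, against 296 to 514. Of the 14, 10 were highest there, against 21.5% of all genes. Over 2-fold above every other array were Cd14 (7.12 against 4.42 to 5.31) and Lyz2 (6.69 against 3.69 to 5.11). Adgre1, at 3.15 against 2.95 to 3.48, and Csf1r, at 6.01 against 5.21 to 6.33, were inside the range of the other arrays. The 12 neutrophil markers summed to 195, against 81.3 to 86.2. Lcn2, also in the acute phase list, gave 96.0 of the 195, and without it, a split made after its value was seen, the sum was 98.7, against 70.8 to 73.5. Of the 12 markers, 8 were highest on casein array 2, against 21.5% of all genes. Over 2-fold above every other array were 3, against 1.22%: Lcn2, S100a9 (4.27 against 2.77 to 2.98) and Mmp8 (3.91 against 2.58 to 2.76). Only 2 of the 12 lay above the median gene of casein array 2, and S100a8, Mpo, Elane and Csf3r stayed between 2.29 and 3.41 there. Lymphocyte markers, 12 of 14 measured, summed to 119, against 97.4 to 108, with Cd3e at 2.57 and Ms4a1 at 2.19 on casein array 2. Endothelial markers, 9 of 10 measured, were highest on casein array 2 in 0 of 9 and summed to 620, against 679 to 835, with Tek at 4.96 against 6.24 to 6.77. Satellite cell markers, 9 of 10, summed to 449, against 318 to 429. Casein array 2 was highest in 3 of 9, among them Vcam1 of the adhesion list, at 5.95 against 2.96 to 4.17. It was lowest in 2, Itga7 (6.04 against 6.52 to 6.96) and Myf5 (3.87 against 4.22 to 4.60).

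Hepatocyte markers, 18 of 18 measured, summed to 5091 on casein array 2, against 225 to 1719 on the others, and 17 of 18 were highest there. Leucine array 2 had the next highest hepatocyte sum, 1719, and there the members summed to 470, inside the range of the 4 remaining arrays. That is 1 array, with a hepatocyte sum below that of casein array 2. The part of hepatocyte transcripts in the members' signals was not tested. Alb, which encodes albumin, was at 9.80 on leucine array 2, where Il6 was at 2.40 and Ccl2 at 3.62. Acute phase genes of liver, 16 of 17 measured, had a median difference of 1.86. Within that list Hpx, the haem scavenger, was at 7.67 on leucine array 2 and 8.45 on casein array 2. Serpina3n and Lcn2, which are also made outside the liver, were at 5.66 and 3.50 on leucine array 2 and at 9.34 and 6.59 on casein array 2. Slow-fibre markers summed to 978 on casein array 2, against 9403 to 14509, and the fast oxidative myosin Myh2 was at 8.26 against 11.40 to 11.89. The 12 fast-fibre markers measured summed to 58833, against 59374 to 77355.

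**Figure D3:**
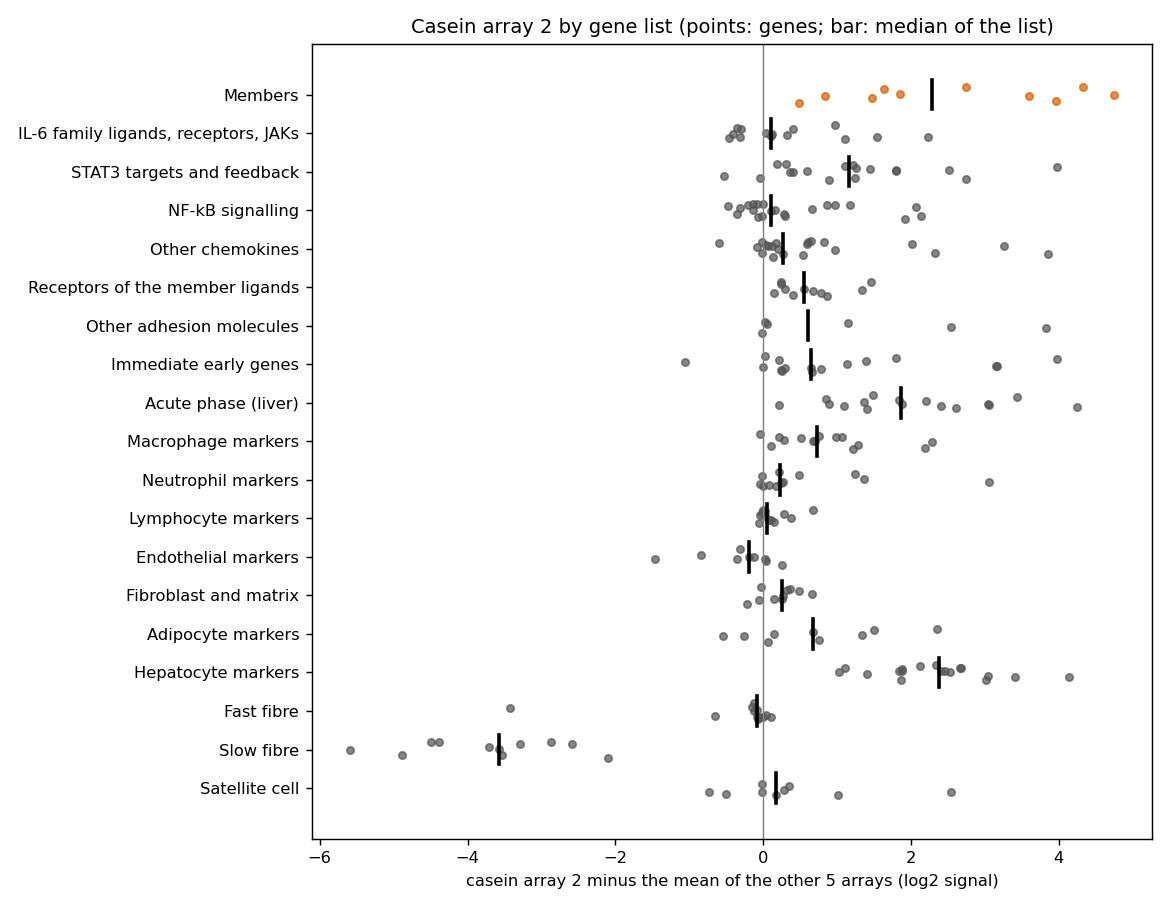
Casein array 2 minus the mean of the other 5 arrays (horizontal axis, log2 signal) for each gene of the members, the 8 pathway lists and the 10 marker lists, with a bar at the median of each list. Members (median 2.29), hepatocyte markers (2.38) and acute phase genes (1.86) lie to the right, slow-fibre markers (−3.57) to the left, and lymphocyte (0.05) and endothelial markers (−0.19) near 0.

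The first comparison asked what free leucine in place of part of the casein changed. All 10 members had a lower mean with leucine, against 50.4% of all genes (Stat3, at −0.11, was at 0.07 without leucine array 1), with a median log2 difference of −1.29, against 0.00 over all genes. Il6 averaged 2.40 ± 0.00 on the leucine arrays and 4.48 ± 3.51 on the casein arrays (SD, 2 arrays a diet), and the log2 difference was −2.08 ± 1.69 (SE). Ccl2 averaged 3.55 ± 0.11 with leucine and 5.86 ± 2.97 with casein, a difference of −2.31 ± 1.43. Socs3 averaged 3.59 ± 0.08 with leucine and 5.95 ± 2.48 with casein, a difference of −2.37 ± 1.19. Over 2-fold lower were 6 members, against 0.979% of all genes, and 0 were over 2-fold higher, against 0.489%. In 4 of 10 (Ccl2, Cxcl10, Cxcl1 and Socs3) both leucine arrays lay below both casein arrays, against 15.6%. Since the members were picked for their height on a casein array, nothing is read from these counts. Over all 14506 genes 0 (0.0%) passed an adjusted p of 0.05 by limma with Benjamini-Hochberg adjustment, while 1394 (9.61%) had an unadjusted p under 0.05.

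Most of that difference came from 1 array. Without casein array 2 the median over the members was −0.16, against 0.00 over all genes, with 7 of 10 below 0 and 0 over 2-fold lower. No share of all genes is given for these counts, and nothing is read from them. Without casein array 1 the median over the members was −2.36. Against casein array 1 alone, the log2 difference was 0.40 for Il6, −0.21 for Ccl2, −0.58 for Cxcl10, −0.10 for Cxcl1 and −0.61 for Socs3. Nfkbia then stood at 0.46 and Stat3 at 0.29, both above casein array 1. Against casein array 2 alone, the difference was −4.56 for Il6, −4.42 for Ccl2, −4.51 for Cxcl10 and −4.12 for Socs3, but −0.51 for Stat3.

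The next comparison, dairy against casein, asked about complete dairy protein and uses the same casein arrays. In it 9 of 10 members were lower, against 47.0% of all genes, with a median of −1.20, against 0.00 over all genes, and Stat3 was at 0.08 ± 0.30 (SE) and at −0.03 after quantile normalization. Il6 averaged 2.14 ± 0.03 on the dairy arrays and 4.48 ± 3.51 on the casein arrays (SD, 2 arrays a diet), and the log2 difference was −2.34 ± 1.69. Cxcl1 averaged 4.48 ± 0.13 with dairy and 6.12 ± 1.80 with casein, a difference of −1.64 ± 0.87, and Il1b differed by −1.03 ± 0.44. These are the 2 members in which both dairy arrays lay below both casein arrays, against 11.7% of all genes. Over 2-fold lower were 6 members, against 0.696%, and 0 were over 2-fold higher, against 0.241%. The same choice of members applies here, and nothing is read from these counts. Over all 14506 genes 0 (0.0%) passed by limma, with 696 (4.8%) at an unadjusted p under 0.05.

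Without casein array 2 the median over the members was 0.08, against 0.00 over all genes, and 4 of 10 were below 0. No share of all genes is given for that count either, and nothing is read from it. Socs3 was then at 0.38, Cxcl10 at 0.51, Nfkbia at 0.49 and Stat3 at 0.48, all above casein array 1, while Il1b at −0.39 and Cxcl1 at −0.36 were below it. Against casein array 2 alone the median was −2.31, from −4.82 for Il6 to −0.32 for Stat3.

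**Figure D4:**
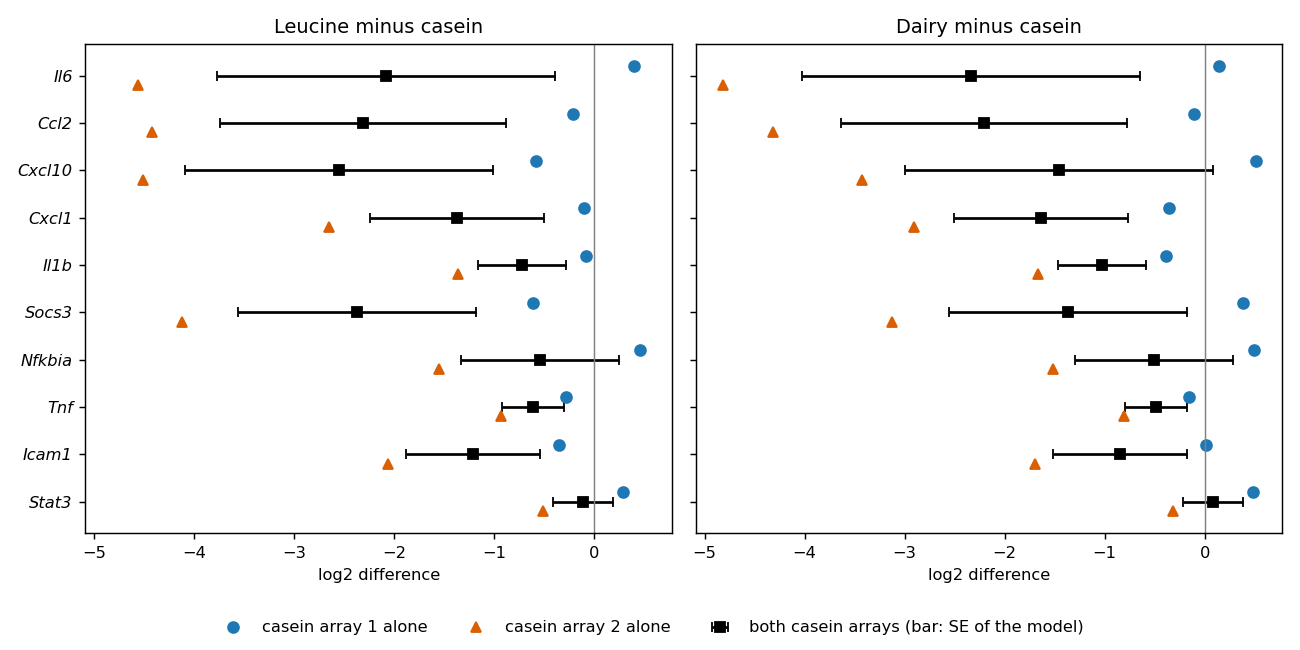
Log2 difference from casein (horizontal axes) of the 10 genes in the leucine diet, left, and the dairy diet, right, with squares for both casein arrays and bars for the SE, circles for casein array 1 alone and triangles for casein array 2 alone. The circles lie between −0.61 and 0.51, and the triangles reach −4.56 with leucine and −4.82 with dairy.

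The third comparison, leucine against dairy, contains no casein array, so the height of casein array 2 did not enter its differences. It did enter their errors, because 1 model shares the spread over the 3 diets. The median over the members was −0.11, against 0.00 over all genes, and 7 of 10 were lower with leucine, against 50.0% of all genes; Nfkbia, 1 of the 7, at −0.03, was at 0.03 after median centring. Over 2-fold lower was 1 member, Cxcl10, against 0.565% of all genes, and 0 were over 2-fold higher, against 0.165%. By limma 0 of 10 members passed, with adjusted p-values of 0.909 or higher, and 0 of 14506 genes did (0.0%), with a lowest adjusted p of 0.514. At an unadjusted p under 0.05 there were 827 genes (5.7%) and 0 members.

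Socs3 kept its 2 diets apart by more than any other member whose arrays did not overlap: 3.59 ± 0.08 with leucine and 4.58 ± 0.02 with dairy (SD, n = 2 each). The log2 difference was −0.99, or 1.99-fold lower with leucine. Its SE was 1.19 in the 6-array model and 0.06 without casein array 2, with limma adjusted p-values of 0.909 and 0.512 and 0 genes past 0.05 in either. Stat3 was also lower on both leucine arrays than on both dairy arrays, at −0.19 ± 0.30, and such separation held for 14.9% of all genes. Il6 at 0.26 ± 1.69, Cxcl1 at 0.26 ± 0.87 and Il1b at 0.31 ± 0.44 were higher on both leucine arrays, as were 13.4% of all genes. Cxcl10 differed most, by −1.09 ± 1.54, and was at 0.02 without dairy array 1. The arrays overlapped for Ccl2, Cxcl10, Nfkbia, Tnf and Icam1.

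**Figure D5:**
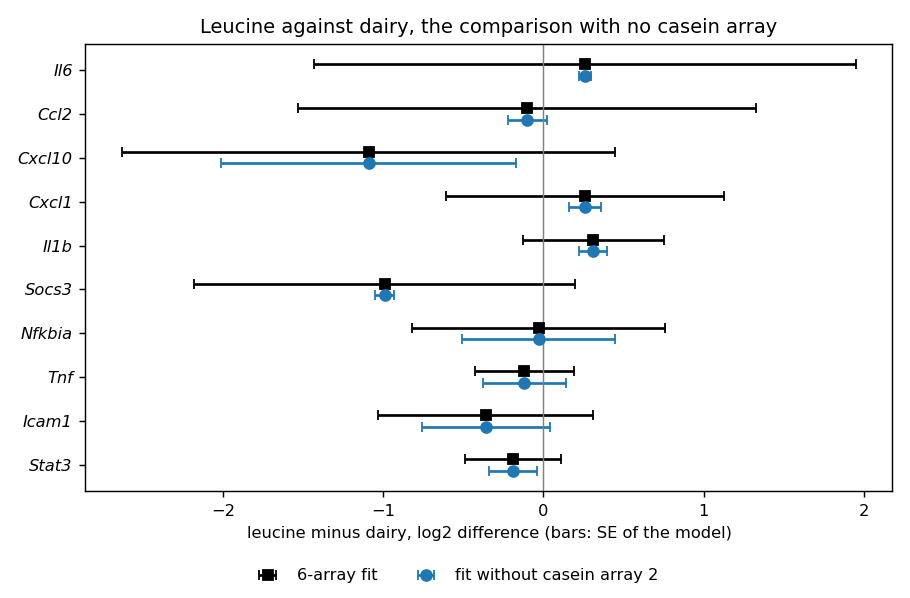
Leucine minus dairy (horizontal axis, log2 difference) for the 10 genes, with squares and SE bars from the 6-array model and circles and SE bars from the model without casein array 2. The differences are the same in both models and run from −1.09 for Cxcl10 to 0.31 for Il1b, and the SE of Socs3 shrinks from 1.19 to 0.06.

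In the model without casein array 2, 3 of 10 members (Il6, Il1b and Socs3) had an unadjusted p under 0.05 in leucine against dairy, against 7.55% of all genes, and their adjusted p-values by limma were 0.512, 0.654 and 0.512. Deposited values repeat across arrays. Some value was shared by 2 or more arrays in 60.8% of all genes and in 4 of the 10 members, and it was shared within a diet for Il6 on the 2 leucine arrays and Stat3 on the 2 dairy arrays. Socs3 had no repeated value, and that of Il1b was shared between leucine array 2 and casein array 1. Among the receptors of the member ligands, 11 of 11 were lower with leucine than with dairy, with a median of −0.36, and in the macrophage list 14 of 14, with a median of −0.67, against 50.0% of all genes. The same direction held for 10 of 10 fibroblast and matrix markers (median −1.41), 9 of 9 adipocyte markers (−0.49), 6 of 6 other adhesion molecules (−0.33) and 11 of 12 fast-fibre markers (−0.28). It did not hold for hepatocyte and slow-fibre markers, of which 1 of 18 (median 0.48) and 1 of 11 (0.36) were lower. Nor did it hold for acute phase genes of liver, with 4 of 16 lower (0.59), or satellite cell markers, with 4 of 9 (0.03). Of the ligands, receptors and kinases upstream of STAT3, 6 of 14 were lower (0.01). By limma 0 genes of these lists passed.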

How the data were processed

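Each deposited value is a log2 signal of 1 transcript cluster on 1 Rat Gene 1.0 ST array. Per the submitters' processing notes, the authors used Affymetrix Expression Console. Its version, background correction and normalization are not given in the sources used here. Of 29214 transcript clusters, 15310 had 1 gene in the platform annotation. Symbols were updated through the gene identifier, and of several clusters for 1 gene the brightest by mean was kept, which left 14506 genes with no filter on dim ones. Diets were compared with limma 3.58.1 in R 4.3.3, with diet as the only term over all 6 arrays, empirical Bayes moderation and Benjamini-Hochberg adjustment over all genes at 0.05. The procedure was tested on simulated data. The number of arrays limits the precision.

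The members and the lists were chosen with earlier results of these data known. All 10 members are named, up to 3 genes per list with the largest difference between casein array 2 and the mean of the others, the 10 genes most like Il6 and the 10 farthest above on casein array 2. Other genes were named after their values were seen. Alternatives were quantile normalization, median centring, a trended robust variance, only genes above the median, every transcript cluster, a replicate block and each array left out in turn.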

Additional observations from a re-analysis of the deposited data

How the results depend on the processing

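Genes past an adjusted p of 0.05 numbered 0 in each of the 3 comparisons under quantile normalization, median centring, the trended robust variance, only genes above the median and every transcript cluster. With arrays left out in turn they numbered 0 to 1 in leucine against casein and in dairy against casein, the 1 being Il6 without casein array 1, where casein is the array its choice rests on, and 0 in leucine against dairy. With the replicate number as a block 0 genes passed in each comparison. Same-numbered arrays deviated together only weakly, with correlations across genes of 0.179 for leucine and casein, 0.0536 for leucine and dairy and 0.0865 for dairy and casein, and no pairing was assumed. The median over the members ran from −2.36 to −0.16 in leucine against casein, from −2.31 to 0.08 in dairy against casein and from −0.20 to 0.02 in leucine against dairy when arrays were left out. Casein array 2 stood above every other array in 9 of 10 members at 1.5-fold, against 2.59% of all genes. At 2-fold after median centring it did so in 7 members, with 148 genes in all. At 4-fold it did so in 5 members, against 0.248% of all genes. The members were chosen on this height, so nothing is read from these counts. In leucine against dairy, differences changed sign for Ccl2 (−0.22 to 0.02 over the arrays left out), Cxcl10 (−2.19 to 0.02) and Nfkbia (−0.51 to 0.45), each positive without dairy array 1. Sign changes also came for Nfkbia (0.30) and Tnf (0.16) without leucine array 2, for Tnf (0.04; −0.40 to 0.16) without dairy array 2, for Icam1 (0.12; −0.84 to 0.12) without leucine array 1 and for Nfkbia (0.03) after median centring. Stat3 also changed sign, in leucine against casein without leucine array 1 (0.07) or casein array 2 (0.29), and in dairy against casein under quantile normalization (−0.03) and without casein array 1 (−0.32). Without casein array 2, Il6 (0.40) and Nfkbia (0.46) changed sign in leucine against casein. In dairy against casein without that array, Il6 (0.14), Cxcl10 (0.51), Socs3 (0.38), Nfkbia (0.49) and Icam1 (0.01) did so. None of these passed, and the cause was not tested. With 2 arrays per diet and no background reading, a difference among dim genes such as Il6 on 5 arrays has no known floor.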

Other observations

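Outside the inflammatory lists, the genes farthest above every other array on casein array 2 included metallothioneins, which bind zinc and copper. Mt1 stood at 11.17 on casein array 2, against 6.45 to 7.53 on the other 5, and Mt2A at 11.12, against 6.32 to 7.69. The orphan nuclear receptor genes Nr4a3 and Nr4a2, which respond early to stress and to exercise, stood at 7.66 and 6.12, against at most 4.70 and 3.38. Serpina3n, Junb, Ccl7, Selp, Ptx3 and Lcn2 make up the rest of the 10 non-member genes with the largest excess, which ran from 2.74 to 3.64.

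Fibroblast and matrix markers did not share this pattern. They were highest on casein array 2 in 0 of 10 and summed to 2295 there, inside the range of 972 to 3609 on the other arrays. Their sums were 1032 and 972 on the leucine arrays and 3609 and 2352 on the dairy arrays.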
